A study of Aegilops tauschii x Triticum turgidum and Aegilops tauschii and Triticum turgidum subsp. durum with 18 samples.

Results

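Newly made hexaploid wheat plants were compared with an RNA mix of the 2 parents they were bred from. S0_36 is the hybrid of Triticum turgidum cv Joyau and Aegilops tauschii ssp. strangulata accession 36 at selfed generation 0, and mix36 holds equal amounts of RNA of Joyau and of that accession (Ae36). The 4 arrays were chosen by these labels, 2 of S0_36 (replicates 3 and 9) and 2 of mix36, out of 18 Affymetrix wheat arrays. All RNA came from whole, untreated plants of 40 days grown under a photoperiod of 16 h at 24 °C. The labels call the S0_36 arrays biological replicates and those of mix36 only replicates. The other arrays, 2 per group, serve here as background: S0_54 and S1_54 are selfed generations 0 and 1 of Joyau crossed with Ae. tauschii ssp. tauschii accession 54 (Ae54), mix54 is the matching RNA mix, Courtot is a natural hexaploid cultivar, and Joyau, Ae36 and Ae54 are the parents. All groups share the same age and growth conditions, and no line was genetically modified. The genotype label reads hexaploid on every array, the parents and mixes included, so the groups rest on the sample descriptions.

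Bread wheat is an allohexaploid: it joined the A and B genomes of a tetraploid wheat with the D genome of Ae. tauschii, so most genes exist as related copies (homoeologs) on all of these genomes. Crossing the parents again remakes this step, and the question asked of such plants is which transcripts keep the level that the parents together would give and which depart from it. An RNA mix stands in for the sum of the parents, but an equal mix need not be the additive level, because the tetraploid gives a hexaploid the A and B genomes and the diploid only the D genome. A difference from the mix is therefore given below as just that.

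Levels are log2 expression values per probe set, so a difference of 1 is a 2-fold change, and values under about 5 lie near the floor set by the background correction. Of the probe sets on the array, 18189 reached 5 on at least 2 of the 18 arrays and were tested. The 4 arrays held between 13597 and 13998 probe sets at 5 or more. The S0_36 arrays correlated at r = 0.971 with each other over the tested probe sets, and the SD of the difference between them was 0.496. For the mix36 arrays these were 0.998 and 0.131, so they were averaged and counted as 1 sample. petC, the Rieske iron-sulphur subunit of the photosynthetic cytochrome b6f complex, stood at 13.24 and 13.58 in S0_36 and at 13.77 and 13.75 in mix36, as green tissue would give. No marker of developing grain matched a gene name, so the presence of grain could not be checked. The hybridization controls averaged 9.78 and 9.39 on the S0_36 arrays and 9.11 and 9.10 on the mix36 arrays, and the 18S ribosomal RNA probe set stood at 5.89 and 5.97 against 5.15 and 5.20. Their part in the results was not tested. Among the parental arrays, Ae36 replicate 2 stood apart, with hybridization controls at 11.80 and 11895 probe sets at 5 or more. Both Ae36 arrays are labelled with 20 µg of total RNA against 40 µg for the 4 arrays compared. The label of Ae54 replicate 2 also gives 20 µg, and that of Ae54 replicate 1 gives 40 µg. Some results that use the parents are also given without Ae36 replicate 2.

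S0_36 plants differed from mix36 in 2360 of the 18189 tested probe sets (13.0%, limma, adjusted p under 0.05). Of these, 1142 (6.28% of those tested) were higher and 1218 (6.70%) were lower in S0_36. The counts were near even in this fit, but the sizes were not. The median difference was 2.21 among the probe sets called higher and -1.51 among those called lower, beside -0.136 over all tested. At a difference of 2 or more, which is 4-fold, 650 were higher and 245 lower, at 3 or more 303 and 57, and at 4 or more, 16-fold, 106 and 17. All 2360 had both S0_36 arrays on one side of both mix36 arrays, as did 78.3% of all tested probe sets, since the mix arrays lie so close together. In plants taken whole, a change in the make-up of the tissue and a change in RNA per cell cannot be told apart. The count was 1319 without S0_36 replicate 3 and 1525 without S0_36 replicate 9, and with each array centred on its median the balance turned to 1267 higher and 1237 lower. It was 732 to 149 under 1 shared variance with Bonferroni adjustment, 675 to 297 with only S0_36 and mix36 in the fit, 2282 to 3316 with each mix array as its own sample, and 935 to 1641 against a computed equal mid-parent.

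**Figure D1:**
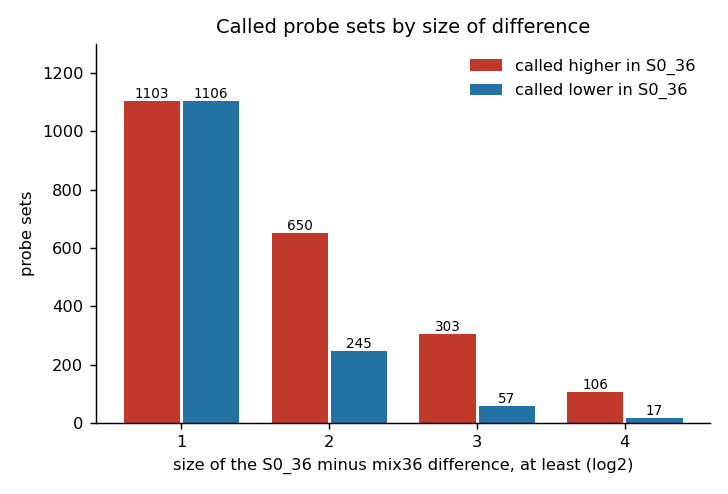
Number of probe sets called higher or lower in S0_36 than in mix36 (vertical axis) whose log2 difference reached at least 1, 2, 3 or 4 (horizontal axis). The bars are level at 1, with 1103 higher and 1106 lower, and part at 4, with 106 and 17. The floor limits the size of a fall.

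The level in the mix went with the direction of change. Where mix36 was at 3.5 or below, 303 of 911 probe sets were called higher (33.3%) and 1 was called lower. Between 5 and 7 in mix36, 302 of 7304 were called higher and 516 lower, and between 9 and 11, 39 of 1712 were higher and 184 lower (10.7%). A transcript near the floor of the mix can hardly be measured as falling, and the filter lets it in only if it is high in some other group, so these shares describe the array data and are not a test of the direction.

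**Figure D2:**
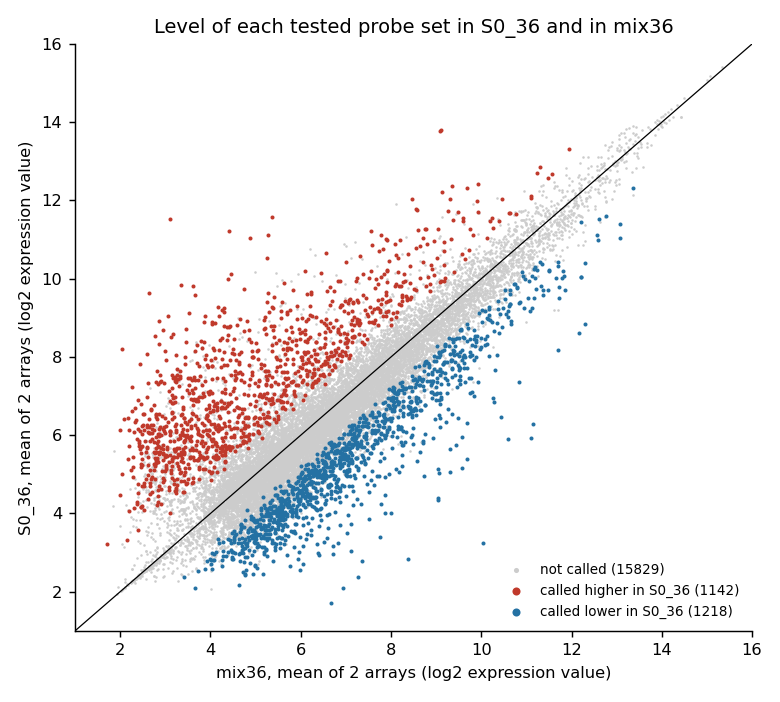
Level of each of the 18189 tested probe sets in S0_36 (vertical axis) and mix36 (horizontal axis), as the log2 mean of 2 arrays each, with the 1142 called higher in red, the 1218 called lower in blue and the line of equal levels in black. The red points rise steeply at the low end of the mix, and the blue points run mostly in a band below the line.

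Rises and falls also differed in where they left S0_36 relative to its parents. Both S0_36 arrays lay above all 4 arrays of Joyau and Ae36 in 1885 probe sets (10.4% of those tested) and below all 4 in 2385 (13.1%). Among the probe sets called higher, 954 of 1142 (83.5%) stood above both parents. Among those called lower, 352 of 1218 (28.9%) stood below both, and 866 stood within the parental range. The mix, which should lie between its components, lay above all 4 parental arrays in 4.40% and below them in 8.00% of the tested probe sets. Of the probe sets called higher, 161 had mix36 below both parents, and of those called lower, 52 had mix36 above both. Where S0_36 had to clear every parental array by 1 or more, 625 probe sets stood above and 75 below. Without Ae36 replicate 2 the counts above and below the parents were 2078 and 3254. The filter can admit a probe set that is near the floor in every group but S0_36, and such a probe set can hardly be measured as falling. Of the probe sets called higher, 304 had all parental and mix36 arrays under 5. These shares and counts therefore describe the array data and are not a test of rises against falls.

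Transcripts that differ between the parents moved unevenly. Among the 4149 probe sets higher in Ae36 than in Joyau by 1 or more, the median S0_36 minus mix36 difference was -0.523, and 162 were called higher against 617 lower. For the 5336 higher in Joyau it was 0.099, with 497 higher and 417 lower, and for the 8704 within 1 of each other it was -0.114, with 483 and 184. The single S0_36 arrays gave -0.497 and -0.539 for the class higher in Ae36 and 0.101 and 0.088 for the class higher in Joyau. Without Ae36 replicate 2 the class medians were -0.505 for the class higher in Ae36 and 0.117 for the class higher in Joyau. A mid-parent computed at 2 parts of Joyau to 1 of Ae36 lies lower than an equal one for the first class. Against it, S0_36 stood at -0.251 there and at -0.332 in the class higher in Joyau, so the classes were closer together on that scale. That mid-parent uses the parental arrays that also set the classes.

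**Figure D3:**
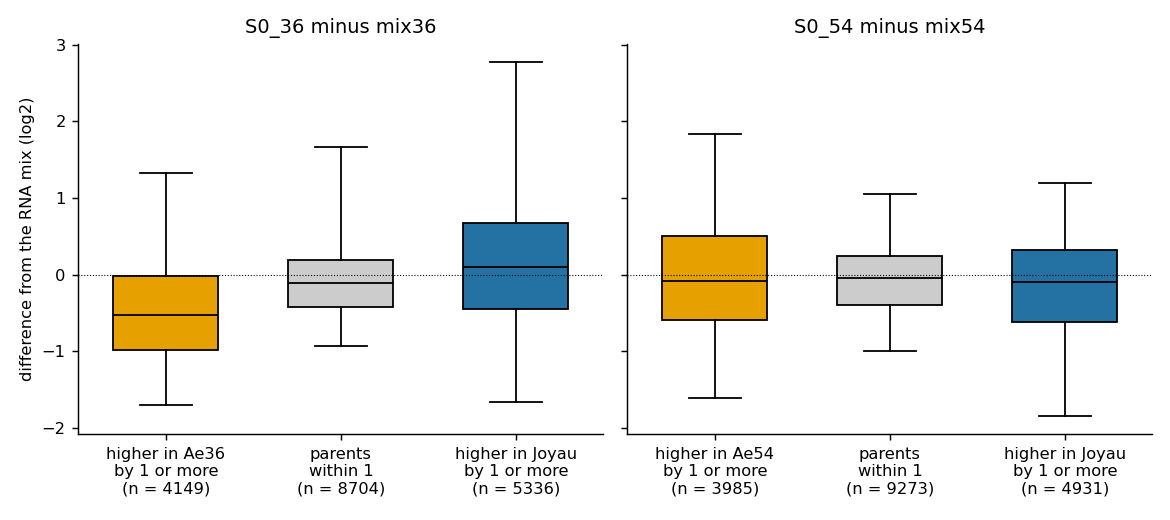
Log2 difference from the RNA mix (vertical axis) for S0_36 minus mix36 (left) and S0_54 minus mix54 (right), with probe sets split by which parent was higher. Boxes span the quartiles with the median as a line, and whiskers reach the 5th and 95th percentiles. The class higher in Ae36 sits lowest, with a median of -0.523, while the cross with accession 54 has -0.077 in the matching class.

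The same contrast in the other cross looked otherwise, and so did its mix. S0_54 minus mix54 had a median of -0.077 in the class higher in Ae54 and -0.098 in the class higher in Joyau. Against the computed equal mid-parent, though, S0_36 stood at -0.576 in the class higher in Ae36 and S0_54 at -0.451 in the class higher in Ae54. The mixes lay apart on this scale, with mix36 at -0.055 and mix54 at -0.403 from the computed mid-parent in these classes. The labels give equal amounts of RNA for both mixes, and whether their true shares differed was not tested, so every value against a mix, and every difference between crosses, rests on the mixes as made. The labels of Ae54 replicate 1 also disagree: its description names accession 54, but its organism and extract fields are those of the mix. The classes and mid-parents of that cross rest on the description. The comparisons share the Joyau arrays, and no test was made of the difference between these medians. The classes and the computed mid-parents also use the same parental arrays, so a deviation from a mid-parent is not independent of the class.

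Some transcripts seen in only one parent fell under 5 in the plants. Of 2024 probe sets at 5 or more on both Ae36 arrays and under 5 on both Joyau arrays, 469 were called lower and 58 higher in S0_36. Both S0_36 arrays were under 5 in 39.8% of them, against 17.4% for both mix36 arrays. In the other cross, 40.4% of the 2099 such Ae54 probe sets were under 5 on both S0_54 arrays and 40.2% on both mix54 arrays, so the plants were alike in this share and the mixes were not; the difference was not tested. Of 2931 seen in Joyau only, 225 were called lower and 288 higher, with 28.2% under 5 in S0_36 and 31.0% in mix36. Over all tested probe sets, 1094 (6.01%) were under 5 on both S0_36 arrays and at 5 or more on both mix36 arrays. The call was lower for 379 of these, of which 178 were seen in Ae36 only, 117 in Joyau only and 35 in both parents.

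A smaller set was seen in the plants and in neither parent. In all, 984 probe sets (5.41%) were at 5 or more on both S0_36 arrays and under 5 on both mix36 arrays, and 563 of them were called higher. The 4 parental arrays and both mix36 arrays were all under 5 in 1307 tested probe sets, and 366 of these reached 5 on both S0_36 arrays, of which 304 were called higher. The filter passed these 1307 only because some group reached 5, so their number is not a rate. Of the 366, 121 (33.1%) also reached 5 on both S0_54 arrays, 109 on both S1_54 arrays and 87 (23.8%) on both Courtot arrays. Among all 1307, the same held for 220 in S0_54, 291 in S1_54 and 395 (30.2%) in Courtot. The S0_36 arrays were enough for the 366 to pass the filter, whereas the others of the 1307 had to reach 5 in some further group. The shares of the 366 and of the 1307 therefore cannot be weighed against each other. The largest rise among the called probe sets belonged to one without a gene name, which stood at 11.28 and 11.80 in S0_36 against 3.10 and 3.10 in mix36, with 3.15 in Joyau and 2.74 in Ae36, a rise of 8.44 ± 0.51 (SE, adjusted p = 7.25e-06). It was at 7.86 in S0_54, 7.03 in S1_54 and 4.12 in Courtot. Another such probe set stood at 10.16 and 9.09 in S0_36 against 2.63 and 2.66 in mix36, a rise of 6.98.

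Gene names exist for few of the probe sets: 716 of those tested carry 1 of 511 gene names, nearly all of them LOC identifiers without a described function in the table used. Of the 716, 48 were higher (37 genes) and 43 lower (38 genes) in S0_36, 12.7% in all, close to the 13.0% of the whole array. The 15 largest named rises ran from 3.08 to 5.74 and all 15 stood above both parents. The 15 largest named falls ran from -1.70 to -5.55, and 6 of them stood below both parents while 9 stood within the parental range. Of the rises, 6 were of genes higher in Joyau, 4 of genes higher in Ae36 and 5 of genes within 1 in the parents. Of the falls, 11 were of genes higher in Joyau and 3 of genes higher in Ae36. Over all tested probe sets the falls leaned the other way. There, 7.81% of the class higher in Joyau and 14.9% of the class higher in Ae36 were called lower, and 9.31% and 3.90% were called higher. With only S0_36 and mix36 in the fit, 4 of the rises did not pass, namely LOC542826 (adjusted p = 0.056), LOC100125679 (0.173), LOC543476 (0.0681) and LOC542888 (0.094). Nor did 8 of the falls, namely LOC543184 (adjusted p = 0.0599), LOC543244 (0.0572), LOC543003 (0.136), LOC543398 (0.0657), LOC100125701 (0.0657), LOC543067 (0.0657), LOC542794 (0.0698) and LOC100049041 (0.0576). With no filter on low values the calls of LOC100125679 (adjusted p = 0.106), LOC542993 (0.0802), LOC542888 (0.119), LOC543016 (0.191), LOC543398 (0.147) and LOC100125701 (0.0886) ended.

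**Figure D4:**
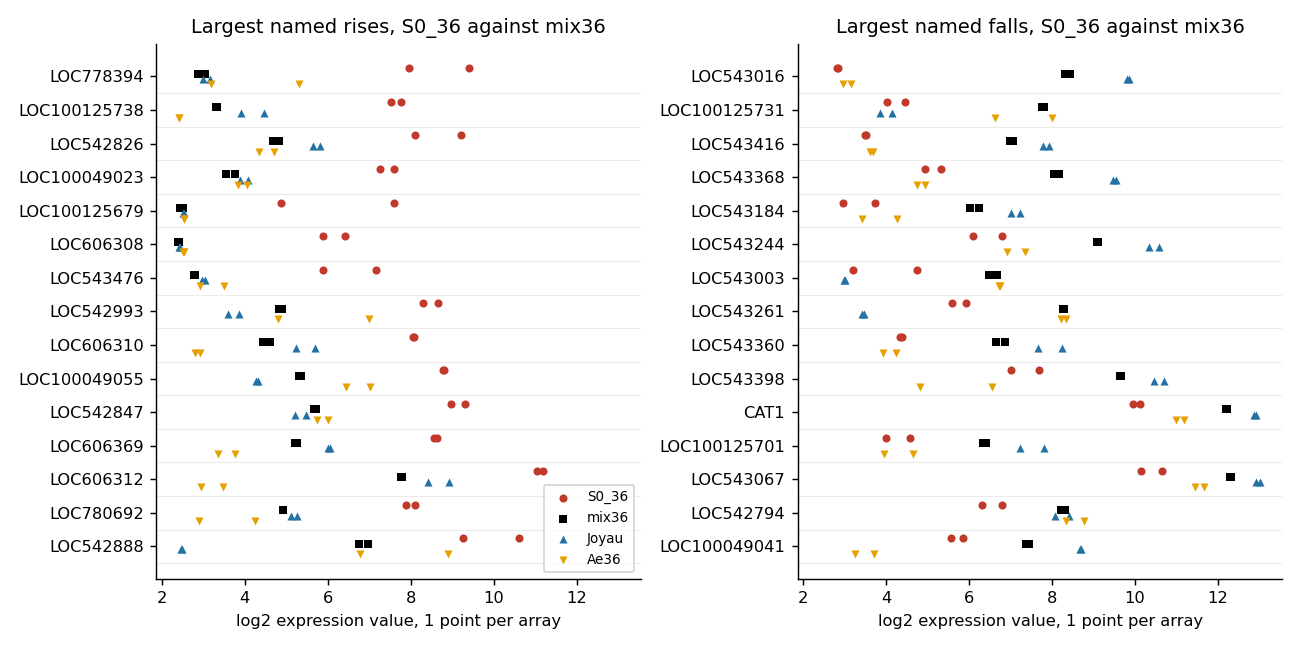
Log2 expression value on each array (horizontal axis, 1 point per array) of the 15 largest named rises (left) and falls (right), in S0_36, mix36, Joyau and Ae36. On the left the S0_36 points stand right of all others for each gene. On the right both S0_36 points lie left of all parental points for 6 genes, and for the other 9 they do not.

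The first group of named rises was near the floor in both parents and in the mix. LOC606308 had 6.41 and 5.90 in S0_36 against 2.40 and 2.40 in mix36, with Joyau at 2.42 and Ae36 at 2.53, a rise of 3.75 ± 0.65 (SE, adjusted p = 0.00419). Its second probe set rose by 3.53. The groups lay far apart for both probe sets, and S0_36 was the higher on each array. LOC543476 had 7.17 and 5.87 in S0_36 against 2.78 and 2.80 in mix36, and rose by 3.73. It was near the floor in every other group, with 3.04 in S1_54 and 2.75 in Courtot, so only the S0_36 arrays brought it past the filter. LOC100125679 had 4.86 and 7.60 in S0_36 against 2.44 and 2.52 in mix36, so that its S0_36 arrays differed by 2.73 although both lay above the mix (rise of 3.75, SE 0.89, adjusted p = 0.0199). With 1 S0_36 array left out, its rise was 5.12 without replicate 3 and 2.39 without replicate 9. LOC100049023 had 7.59 and 7.25 in S0_36 against 3.75 and 3.54 in mix36, with both parents between 3.84 and 4.07. All 4 genes were near the floor in the parents and the mix, and LOC100125679 was the one with an S0_36 array under 5.

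LOC778394 was the largest named rise. It had 9.41 and 7.96 in S0_36 against 3.03 and 2.87 in mix36, a difference of 5.74 ± 0.91 (SE, adjusted p = 0.00261) or 53.3-fold. Its other probe set had 8.95 and 7.21 in S0_36 against 2.59 and 2.61 in mix36. S0_36 replicate 3 was the higher on both probe sets. One Ae36 array read 5.31 on the first probe set and the other 3.19, so the parent is not at the floor throughout. LOC778394 was at 7.14 in S0_54 and 6.64 in S1_54 and at 2.87 in Courtot.

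A second group was higher in Joyau than in Ae36 and went above both. LOC606312 had 11.20 and 11.06 in S0_36 against 7.76 and 7.80 in mix36, with 8.92 and 8.42 in Joyau and 2.94 and 3.48 in Ae36. It rose by 3.35 ± 0.29 (SE, adjusted p = 7.36e-05), 10.2-fold, and its S0_36 arrays lay over 2 units above either Joyau array. LOC606310 had 8.09 and 8.06 in S0_36 against 4.43 and 4.62 in mix36 (rise of 3.55), and LOC780692 had 7.89 and 8.11 against 4.91 and 4.92 (rise of 3.08). The S0_36 arrays of these genes were close to each other and did not overlap with any parental array. LOC100125738 rose by 4.33, to 7.53 and 7.77 in S0_36 against 3.32 and 3.33 in mix36, and its parents were both under 5, at 4.45 and 3.90 in Joyau and 2.42 and 2.41 in Ae36. LOC542826 rose by 3.91, to 9.20 and 8.11 in S0_36 against 4.82 and 4.68 in mix36.

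A further group was higher in Ae36 and went above that parent. LOC100049055 had 8.80 and 8.78 in S0_36 against 5.36 and 5.31 in mix36, with 4.31 and 4.27 in Joyau and 7.02 and 6.44 in Ae36, and rose by 3.45 ± 0.27 (SE, adjusted p = 3.48e-05). LOC542888 had 10.62 and 9.26 in S0_36 against 6.75 and 6.97 in mix36 and rose by 3.08. It stood at 8.91 and 6.79 in Ae36 and at 2.47 and 2.50 in Joyau, so that one S0_36 array lay only slightly above the higher Ae36 array. LOC542993 rose by 3.61, to 8.65 and 8.29 in S0_36 against 4.82 and 4.89 in mix36, and its second probe set was higher by 1.83 but did not pass (adjusted p = 0.0523). Without S0_36 replicate 3, neither LOC542888 (2.39, adjusted p = 0.121) nor LOC542993 (3.43, adjusted p = 0.0663) passed. LOC542847, alike in both parents at 5.35 in Joyau and 5.87 in Ae36, had 9.30 and 8.98 in S0_36 against 5.71 and 5.67 in mix36, and its 2 probe sets rose by 3.45 and 3.28.

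LOC606369 shows how probe sets of one gene can follow different parents. The probe set with the largest rise was higher in Joyau (6.04, with 3.56 in Ae36) and had 8.64 and 8.55 in S0_36 against 5.21 and 5.26 in mix36, a rise of 3.36. A second one, at 4.78 in Joyau and 2.10 in Ae36, rose by 2.98. A further probe set was higher in Ae36 (6.66, with 3.14 in Joyau), was at 5.94 ± 0.03 in S0_36 and 4.67 ± 0.25 in mix36 (SD, n = 2 each), and rose by 1.27, which left it within the parental range. The last, at 8.94 in Ae36 and 2.60 in Joyau, did not pass, with 6.70 and 6.60 in S0_36 against 7.14 and 7.23 in mix36. Whether these probe sets read different homoeologs was not tested. Among the 146 named genes with 2 or more tested probe sets, 14 had at least 2 called, and in none of the 14 did called probe sets go in opposite directions. LOC780664 had 3 of 4 called lower, by -1.52, -1.18 and -1.07.

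Of the 11 named falls of transcripts higher in Joyau, several brought the plants to the level of Ae36. LOC543416 had 3.51 and 3.5 in S0_36 against 6.99 and 7.07 in mix36, with 7.93 and 7.79 in Joyau and 3.60 and 3.68 in Ae36. It fell by 3.52 (SE 0.20, adjusted p = 5.7e-06), 11.5-fold, and its S0_36 arrays were at the floor, just under the Ae36 arrays. LOC543368 fell by 2.98, to 5.33 and 4.94 in S0_36 against 8.05 and 8.18 in mix36, with Ae36 at 4.74 and 4.95. LOC543360 fell by 2.40, to 4.39 and 4.34 against 6.88 and 6.65, with Ae36 at 4.24 and 3.93. In both genes the S0_36 arrays lay beside those of Ae36 and over 3 units below those of Joyau. LOC543184, LOC543244 and LOC100125701 also fell, at differences of -2.77, -2.65 and -2.07, and their S0_36 arrays lay beside or under the Ae36 arrays. Without S0_36 replicate 9, LOC100125701 did not pass (-1.78, adjusted p = 0.0944).

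LOC543016 fell by 5.55, the largest named fall. It had 2.82 and 2.84 in S0_36 against 8.43 and 8.31 in mix36, with 9.85 and 9.80 in Joyau and 2.96 and 3.16 in Ae36. Its SE of 1.56 is wide (adjusted p = 0.0418), and the S0_54 arrays, which enter the shared estimate of the spread, disagree at 5.66 ± 4.09 (SD, n = 2). The call was lost without S0_36 replicate 3 (adjusted p = 0.123), without S0_36 replicate 9 (adjusted p = 0.114), without Ae36 replicate 2 (adjusted p = 0.0541), with array weights (adjusted p = 0.082) and with no filter on low values. A probe set without a gene name had the same shape with a narrow spread: 3.31 and 3.17 in S0_36 against 10.07 and 10.02 in mix36, with 11.01 in Joyau and 3.17 in Ae36, a difference of -6.80. Another unnamed one fell by 5.18, to 6.37 and 5.47 in S0_36 against 11.13 and 11.07 in mix36.

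In 2 further Joyau-high genes the named probe sets left the plants between the parents. LOC543398 had 7.70 and 7.02 in S0_36 against 9.63 and 9.67 in mix36, with 10.59 in Joyau and 5.69 in Ae36, and LOC100049041 had 5.85 and 5.56 against 7.44 and 7.39, with 8.69 in Joyau and 3.49 in Ae36. The differences were -2.29 and -1.70. LOC543398 did not pass without S0_36 replicate 3 (-2.63, adjusted p = 0.0605) or replicate 9 (-1.95, adjusted p = 0.14), while its second probe set fell by 2.24 (adjusted p = 0.00432). On that probe set S0_36 had 7.44 and 7.00, below all parental arrays, whose means were 9.65 in Joyau and 8.12 in Ae36.

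The 3 named falls of transcripts higher in Ae36 left the plants at different places between the parents. LOC100125731 had 4.03 and 4.45 in S0_36 against 7.76 and 7.80 in mix36, with 6.62 and 7.99 in Ae36 and 3.85 and 4.13 in Joyau, and fell by 3.54 (SE 0.48, adjusted p = 0.00108). LOC543003 had 4.75 and 3.19 against 6.48 and 6.68, a difference of -2.61, with S0_36 arrays 1.56 apart and Joyau at 2.98 and 3.02. LOC543261 had 5.92 and 5.59 against 8.30 and 8.26, a difference of -2.52, and its second probe set fell by 2.42. LOC543261 lay about midway between Joyau at 3.45 and Ae36 at 8.28, whereas LOC100125731 and one S0_36 array of LOC543003 lay near Joyau. Against a computed mid-parent of 2 parts Joyau to 1 part Ae36, LOC543003 and LOC543261 did not pass (-1.38, adjusted p = 0.0948, and -1.04, adjusted p = 0.149).

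CAT1, which encodes catalase, the peroxisomal enzyme that breaks down hydrogen peroxide, fell below both parents. It had 9.95 and 10.11 in S0_36 against 12.19 and 12.23 in mix36, with 12.89 ± 0.03 in Joyau and 11.09 ± 0.13 in Ae36 (SD, n = 2 each). It fell by 2.18 (SE 0.30, adjusted p = 0.00105), 4.53-fold, and each S0_36 array lay about 1 unit under the lower parent. Under 1 shared variance with Bonferroni adjustment the call of CAT1 was lost (adjusted p = 0.166). It was among 8 such losses in the results followed for single probe sets, differences between crosses included. CAT1 was at 10.88 in S0_54 and 10.22 in S1_54, and at 12.44 in Courtot. LOC543067 had a like pattern, with 10.15 and 10.66 in S0_36 against 12.30 and 12.31 in mix36, 12.97 in Joyau and 11.56 in Ae36, a difference of -1.91. LOC542794, alike in the parents at 8.24 in Joyau and 8.56 in Ae36, fell by 1.71, to 6.79 and 6.32 in S0_36 against 8.23 and 8.31 in mix36, and did not pass without S0_36 replicate 9 (-1.48, adjusted p = 0.0618).

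Few other genes of known function could be read. Only 4 of 18 lists of pathway and marker genes had a named and tested member, and CAT1 was the single member called, against 13.0% of all tested probe sets. GAPN, the non-phosphorylating glyceraldehyde-3-phosphate dehydrogenase that supplies NADPH in the cytosol, had 7.86 and 8.85 in S0_36 against 9.60 and 9.61 in mix36, a difference of -1.26 that did not pass (adjusted p = 0.0518) although the arrays do not overlap. Without S0_36 replicate 9, which stood nearer to the mix, it passed at -1.75 (adjusted p = 0.0114), and it passed in 8 of the 16 alternative settings run, with adjusted p between 0.00415 and 1 over all 16. SAHH, S-adenosylhomocysteine hydrolase of the methyl cycle, was at -1.05 and -1.08 on its 2 probe sets (adjusted p = 0.124 and 0.168), with 10.89 and 10.58 in S0_36 against 11.79 and 11.79 in mix36 on the first. FBP, a fructose-1,6-bisphosphatase, was at 0.34 (adjusted p = 0.627), and petC at -0.35 (adjusted p = 0.425). Of the remaining genes with a symbol, TUBA, an alpha-tubulin, was at -0.57, XTH, a xyloglucan endotransglucosylase/hydrolase of the cell wall, at 1.09 and TBP1, a TATA-binding protein, at 0.04, and none of them passed.

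The difference from the mix was tested directly between the crosses, as S0_36 minus mix36 less S0_54 minus mix54. It passed in 450 probe sets (2.47%, limma, adjusted p under 0.05), of which 291 had the higher and 159 the lower difference in S0_36. Of the 2360 probe sets called against mix36, 318 (13.5%) also differed between the crosses, with 228 that were higher on both counts and 84 that were lower on both. The test between crosses contains the S0_36 minus mix36 difference itself, so this overlap and its shared direction are partly built in. With S0_36 replicate 3 left out 248 passed, and with S0_54 replicate 4 or 3 left out 277 or 282.

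Of the 5 named genes highest in this test, 4 rose in S0_36 against mix36, and S0_54 stood within 1 of mix54 in those 4. LOC542826 was at 8.66 ± 0.77 in S0_36 and 4.75 ± 0.10 in mix36, and at 5.08 ± 0.52 in S0_54 and 6.02 in mix54 (SD, n = 2 each), a difference between crosses of 4.86 ± 0.65 (SE, adjusted p = 0.00377). LOC543476 differed by 3.69 and stayed near the floor at 2.86 in S0_54 and 2.82 in mix54. This gene passed the filter through the S0_36 arrays alone. LOC100049055 differed by 3.96: it was at 5.30 in S0_54 and 5.81 in mix54, while Ae54 stood at 8.97 and Ae36 at 6.73. LOC543201 was at 7.10 in S0_36 and 4.24 in mix36, against 3.94 in S0_54 and 4.60 in mix54, with 5.66 in Ae36 and 3.00 in Ae54, and differed by 3.51. LOC543197 differed by 3.16, with S0_36 at 11.52 and mix36 at 11.05 but S0_54 at 9.35 and mix54 at 12.04, which puts S0_54 at -2.69 against its mix. The calls of LOC543201 (1.29, adjusted p = 0.323) and LOC543197 (0.96, adjusted p = 0.769) ended against computed equal mid-parents.

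**Figure D5:**
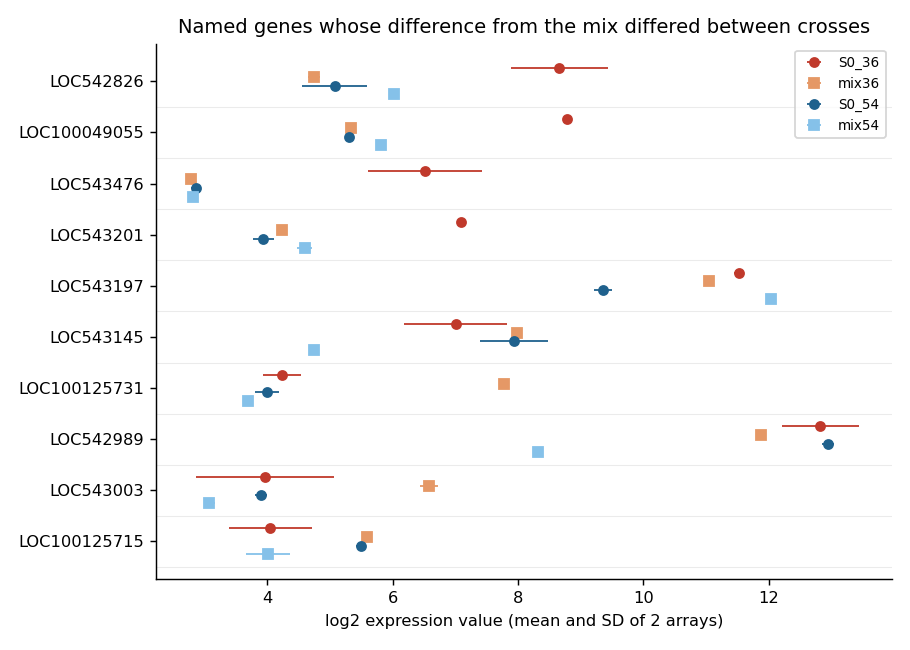
Mean log2 expression value with SD (horizontal axis, n = 2 arrays each) in S0_36, mix36, S0_54 and mix54 for the 5 named genes highest and the 5 lowest in the difference between crosses. For LOC100125731, LOC542989 and LOC543003 the S0 points lie close together and the mix points apart.

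Among the genes lower in this test, the means of the mixes lay further apart than those of the plants in all 5. The diploid parents differed too. Ae36 stood above Ae54 for LOC100125731 (7.31 and 4.44), LOC543003 (6.74 and 3.29) and LOC543145 (8.83 and 5.78). For LOC100125715 it stood below Ae54 (5.81 and 6.80). LOC100125731 was at 4.24 in S0_36 and 3.99 in S0_54, against 7.78 in mix36 and 3.70 in mix54, and differed by -3.84 ± 0.68 (SE, adjusted p = 0.0154). LOC543003 was at 3.97 in S0_36 and 3.90 in S0_54, against 6.58 in mix36 and 3.08 in mix54 (difference of -3.43). LOC542989 was at 12.82 in S0_36 and 12.94 in S0_54, against 11.87 in mix36 and 8.32 in mix54 (difference of -3.67), although Ae54, at 12.15, was no lower than Ae36, at 12.06. The other probe sets of LOC542989 differed by -3.97 (adjusted p = 0.147) and -3.17 (adjusted p = 0.175) and did not pass. Against computed equal mid-parents the difference for the named one was 0.059. LOC543145 differed by -4.17 (7.00 in S0_36 and 7.98 in mix36, 7.93 in S0_54 and 4.74 in mix54), and LOC100125715 by -3.02 (4.05 in S0_36 and 5.59 in mix36, 5.50 in S0_54 and 4.02 in mix54). Without S0_36 replicate 3, LOC543145 (adjusted p = 0.0936), LOC100125731 (0.0582), LOC542989 (0.093) and LOC100125715 (0.086) did not pass. Without S0_54 replicate 4, LOC543145 (adjusted p = 0.0963), LOC542989 (0.0847), LOC543003 (0.0822) and LOC100125715 (0.0929) did not pass, and without S0_54 replicate 3, LOC100125731 (0.0521), LOC542989 (0.0726), LOC543003 (0.07) and LOC100125715 (0.0793) did not.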

How the data were processed

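The deposited values are on a log2 scale and come from GCRMA, per the submitters' processing notes. Which version and settings the authors used is not given in the sources used here. GCRMA corrects background by probe sequence and brings the arrays to a shared distribution, so values near the floor understate a change. Of 61290 probe sets, 111 controls were left out, and those at 5 or more on at least 2 of the 18 arrays were tested (18189). limma 3.58.1 in R 4.3.3 fitted 1 mean per group over 16 samples, with the arrays of each mix averaged, moderated variances (7 residual and 3.44 prior degrees of freedom), two-sided tests and Benjamini-Hochberg adjustment, and called probe sets at an adjusted p under 0.05. p-values rest on the spread pooled over all groups and treat a mix as a sample of that spread. The number of arrays limits the precision.

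Gene names come from a platform table with 1 gene for 1273 probe sets. Genes named are the 15 largest called rises and falls, members of the gene lists, the 5 largest differences each way between crosses, and the largest unnamed rises and falls; XTH, TUBA, TBP1 and genes with several probe sets were added after their values were seen. The members and lists were chosen with earlier results of these data known. The scripts were tested on simulated data.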

Additional observations from a re-analysis of the deposited data

Results flagged for a closer look

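The difference from the RNA mix was not the same in both crosses for 450 probe sets, by limma's test of the difference itself. The named genes that the rule took from these differed, as cross 36 minus cross 54, by 4.86 (LOC542826), 3.96 (LOC100049055), 3.69 (LOC543476), 3.51 (LOC543201) and 3.16 (LOC543197) among those higher in the cross with accession 36. Those lower in it differed by -4.17 (LOC543145), -3.84 (LOC100125731), -3.67 (LOC542989), -3.43 (LOC543003) and -3.02 (LOC100125715). The groups hold 2 arrays each, too few for a search for single outlying arrays.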

How the results depend on the processing

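The count of 2360 probe sets between S0_36 and mix36 grew to 5598 when each mix array was its own sample, and shrank to 881 (732 higher, 149 lower) under 1 variance and Bonferroni adjustment and to 972 (675 and 297) when the fit held S0_36 and mix36 alone. Leaving out 1 array gave 1319 to 2797, the highest without Ae36 replicate 2, an alternative chosen after seeing the data. It lay between 1907 and 3114 with no filter, a filter of 6, quantile normalization, centring, array weights, a variance trend or computed mid-parents, of which 1:1 gave 935 higher and 1641 lower. The difference between crosses, 450, became 1945 when each mix array was its own sample, 774 under array weights, 261 against computed 2:1 mid-parents, and 248 to 615 with 1 array left out. Against 1:1 and 2:1 mid-parents it had 270 and 246 higher and 31 and 15 lower. The counts beyond all parental arrays fell to 625 above and 75 below with a margin of 1, and were 2078 and 3254 without Ae36 replicate 2. FBP reversed against 1:1 and 2:1 mid-parents (-0.037 and -0.012), as did LOC542989 between crosses (0.059 and 0.049); the cause was not tested. Of the named genes, 10 of 15 rises, 4 of 15 falls and 1 of 10 differences between crosses kept their side of the threshold in every setting run. No paired analysis was possible because S0_36 (replicates 3 and 9) and mix36 (1 and 2) share no replicate number. Values near the floor limit what could be measured as falling.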
